A study of Mus musculus with 6 samples.

Results

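Mitosis and the G2/M transition were followed through 39 genes whose products carry a cell from late G2 through division. They are a list of names taken from what these genes are known to do, and make up 39 of the 23462 genes that could be named on the array. The rule sets membership by name and not by a measured value, but the list was chosen with earlier results of these data known. The 39 genes divide into 9 roles, from entry into mitosis to cytokinesis. Each had a probe well above background on all 6 arrays, whereas 13499 of the 23462 genes passed the filter of a probe well above background on at least 3 arrays. All 39 could therefore be tested.

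Cyclin A and B bind the kinase Cdk1 to start mitosis, and the transcription factor Foxm1, acting with the B-Myb and MuvB proteins, switches on many of the genes needed for it. Kinetochores then tie chromosomes to the spindle, a checkpoint holds the anaphase-promoting complex until all are attached, and a ring of actin and myosin finally splits the cell. In the intestine, cell division is confined largely to the crypts, where stem cells at the base and the transit-amplifying cells above them renew the epithelium. The transcripts of these genes are therefore used as a sign of dividing cells.

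RNA came from isolated intestinal crypts of mice, labelled as of mixed strain, and each of 6 samples was hybridised to its own one-colour Agilent array. The 3 control samples were Arid1a f/f, with both copies of Arid1a flanked by loxP sites. The 3 knockout samples were Villin-Cre; Arid1a f/f, so that Cre recombinase driven by the villin promoter, active in intestinal epithelium, removes the floxed part of Arid1a. Both groups carried the floxed alleles, and the control is without Cre, so an effect of Cre itself and loss of Arid1a cannot be told apart. The product of Arid1a binds DNA as part of the SWI/SNF (BAF) chromatin remodelling complex, and the study asked what its loss does to intestinal stem cells and homeostasis. Age, sex and the part of the intestine are not given in the labels used here, and the labels do not name separate animals. The p-values therefore measure only how these samples scatter, which may be technical. The labels contradict each other for 2 samples. Titles and descriptions, followed here, make them knockout 2 and control 3, whereas the source name and genotype fields give each the other genotype.

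Values are log2 signals relative to the array's own 75th percentile, so a value of 1 is a doubling. Arid1a itself, which checks the labels, read 3.71, 3.47 and 4.01 in controls 1 to 3, in that order throughout, against 2.20, 2.07 and 2.51 in knockouts 1 to 3. All knockout arrays lay below all control arrays, so the array of each group with contradictory labels sat with its title. Arid1a fell by 1.47 ± 0.21 (SE, n = 3 against 3), which is 2.77-fold, with an adjusted p of 0.00733 in limma. The 75th percentile corresponded to a processed signal of 205 to 295, between 41.7% and 54.7% of probes were well above background, and no spot was saturated. Controls 1 and 2 and knockouts 1 and 2 shared slide 1, and control 3 and knockout 3 shared slide 2. Of the epithelial marker list (Epcam, Vil1, Cdh1, keratins and others) 11 of 11 genes were tested, with 1, Cdx1, called lower (7.62% of all genes). Relative to the control mean of each gene, the median of that list stood at -0.03, 0.38 and 0.62 in knockouts 1 to 3. Of the T cell list 11 of 12 genes were also well above background.

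The start sites of these genes are of interest because promoters of G2/M genes are known for the cell cycle genes homology region, a short element read TTTGAA at its core and bound by MuvB complexes, and for CCAAT boxes, bound by NF-Y. RefSeq promoter windows of 300 bases, from 250 bases before to 50 bases after a start site (GRCm38.p6), were matched by symbol for 32 of the 39 genes, in 34 windows. Not matched were Ccna2, Cdc25c, Foxm1, Aurkb, Incenp, Tpx2 and Kif20a. Shown are 6 of them, the genes with the smallest p-values among those given array by array that hold TTTGAA in the window. Each runs from 200 bases before to 30 bases after the start, 5′ to 3′ along the gene, with capitals at TTTGAA and CCAAT and at their reverse complements TTCAAA and ATTGG.
Cenpf (chr1:189688057-189688286, minus strand): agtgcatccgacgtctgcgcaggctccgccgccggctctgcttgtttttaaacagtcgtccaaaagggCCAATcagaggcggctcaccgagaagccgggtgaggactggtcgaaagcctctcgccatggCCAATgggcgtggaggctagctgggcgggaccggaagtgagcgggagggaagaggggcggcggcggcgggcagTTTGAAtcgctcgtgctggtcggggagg
Kif11 (chr19:37376182-37376411, plus strand): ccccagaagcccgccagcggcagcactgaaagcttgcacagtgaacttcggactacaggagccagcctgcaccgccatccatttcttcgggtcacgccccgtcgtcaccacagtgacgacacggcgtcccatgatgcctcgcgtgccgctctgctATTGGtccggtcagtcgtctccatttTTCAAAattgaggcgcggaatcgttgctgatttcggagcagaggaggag
Mki67 (chr7:135716350-135716579, minus strand): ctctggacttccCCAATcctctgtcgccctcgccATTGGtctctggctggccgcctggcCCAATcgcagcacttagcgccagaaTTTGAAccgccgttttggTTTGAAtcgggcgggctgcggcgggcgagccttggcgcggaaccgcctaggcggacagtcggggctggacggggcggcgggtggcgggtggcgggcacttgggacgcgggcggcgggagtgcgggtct
Top2a (chr11:99024160-99024389, minus strand): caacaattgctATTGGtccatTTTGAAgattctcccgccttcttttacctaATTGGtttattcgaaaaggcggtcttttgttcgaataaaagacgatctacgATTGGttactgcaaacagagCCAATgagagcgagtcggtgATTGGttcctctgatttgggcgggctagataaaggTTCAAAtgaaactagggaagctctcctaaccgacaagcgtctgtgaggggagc
Racgap1 (chr15:99651627-99651856, minus strand): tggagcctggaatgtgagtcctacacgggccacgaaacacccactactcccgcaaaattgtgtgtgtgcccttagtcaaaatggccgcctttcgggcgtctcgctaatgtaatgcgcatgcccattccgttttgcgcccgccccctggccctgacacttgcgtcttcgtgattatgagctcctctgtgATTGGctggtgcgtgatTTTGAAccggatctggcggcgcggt
Ube2c (chr2:164769729-164769958, plus strand): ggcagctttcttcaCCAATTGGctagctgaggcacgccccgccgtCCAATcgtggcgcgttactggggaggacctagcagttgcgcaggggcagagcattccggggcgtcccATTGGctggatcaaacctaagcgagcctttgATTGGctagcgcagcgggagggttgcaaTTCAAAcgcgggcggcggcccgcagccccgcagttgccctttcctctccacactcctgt

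TTTGAA lay within 50 bases of the start in all of these but Mki67. In Cenpf it began at base 3 and in Racgap1 at base 6 of the transcript, counted from 1 at the start site, both on the gene's own strand. In Kif11, Top2a and Ube2c a match on the opposite strand had its most upstream base 19, 23 and 29 bases before the start. Mki67 had its matches farther away, at 116 and 98 bases before the start, on the gene's strand. For Cenpf, Mki67 and Top2a the start site of the promoter table is not the gene's own boundary in the RefSeq gene table, so these distances hold for the table's start. Ube2c carries a CCAATTGG in which the CCAAT of one strand overlaps that of the other.

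Counted over all windows, TTTGAA on either strand was present in 26 of the 34 windows (76.5%), against 17.9% of all 32851 promoter windows of the same length and 12.8% of windows of the genes tested here. In 24 of 34 windows (70.6%) it lay within 50 bases of the start, against 4.94% of all windows. CCAAT was present in 27 of 34 windows (79.4%, against 37.4% of all), and both motifs in 23 of 34 (67.6%, against 6.95%). The variant TTCGAA was found in 3 windows (8.82%, against 1.56%). Among 40 windows of DNA replication and S phase genes, TTTGAA was present in 15.0% and CCAAT in 60.0%. These shares describe the windows, and a match is not a binding site. By gene, 24 members held TTTGAA and 8 had a window without it (Birc5, Bub1, Ccnb1, Cenpe, Mad2l1, Nek2, Nuf2 and Nusap1). The median log2 difference between knockout and control, described next, was -0.54 in those 24 and -0.41 in those 8. In the 7 members without a matched window it was -0.64. Over all genes tested it was -0.03 with TTTGAA and -0.01 without. The differences ran from -0.87 to -0.07 in the 24 and from -0.74 to -0.11 in the 8. Whether these groups differ was not tested.

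**Figure D1:**
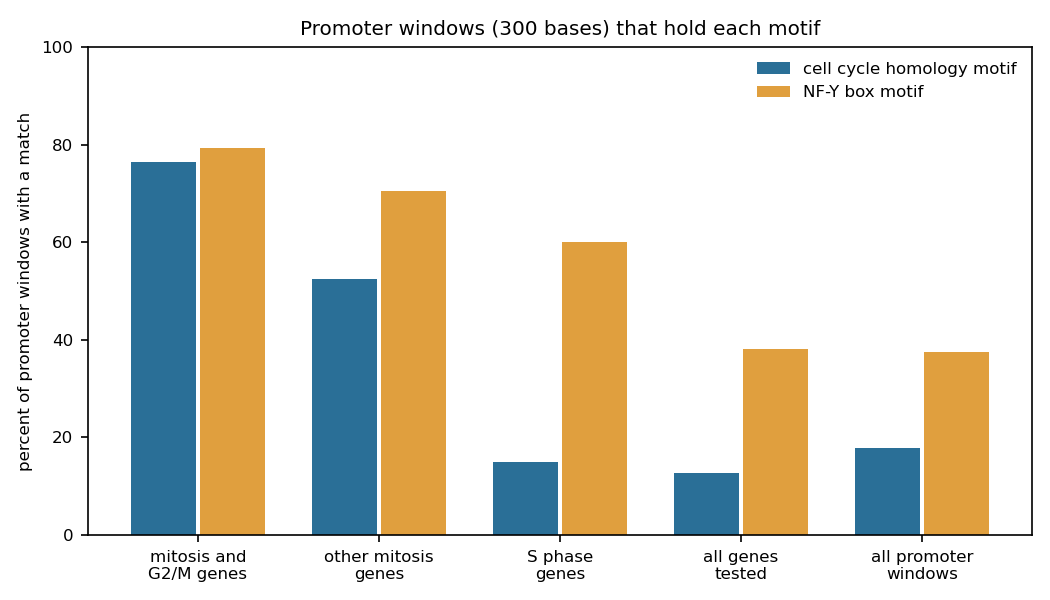
Percent of RefSeq promoter windows of 300 bases with a match on either strand (y axis), for the cell cycle homology motif TTTGAA (blue) and the NF-Y box motif CCAAT (orange), in 5 sets of windows (x axis). The blue bar is at 76.5% for the mitosis and G2/M genes, 52.5% for the other mitosis genes, 15.0% for the S phase genes and 17.9% for all windows.

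No mitosis or G2/M gene passed the test between knockout and control crypts, although every one had a lower mean in the knockout. In limma, 0 of 39 were lower and 0 of 39 higher at an adjusted p under 0.05, against 7.62% lower and 7.27% higher of all 13499 genes tested. At an unadjusted p under 0.05, 6 were lower (Mki67, Top2a, Aurkb, Incenp, Cenpf and Kif11) and 0 higher, against 18% and 16.3% of all genes. None of these shares of members was larger than the background. The smallest adjusted p was 0.0992, for Cenpf, the only one under 0.10, a level reached in the lower direction by 13.3% of all genes. The difference was negative for 39 of 39, against 50.8% of all genes, with a median of -0.52 (1.44-fold lower) beside -0.01 for all genes. It ranged from -0.87 for Top2a (1.83-fold lower) to -0.07 for Ndc80. These genes vary together in dividing cells, so 39 signs are not 39 independent observations. Crypts were measured in bulk, and fewer dividing cells and less RNA of these genes per cell cannot be told apart.

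The 3 knockout arrays did not behave alike. Knockout 3 lay below all 3 controls in 39 of 39 genes (40.8% of all genes did so) and knockout 2 in 35 of 39 (38.5%), the exceptions being Cdca3, Cenpe, Ndc80 and Kif23. Knockout 1 lay below all controls in 2 of 39, Cenpf and Nusap1 (34.7% of all genes), within the controls' range in 29 and above all of them in 8 (Cdc25c, Cdca3, Bub1, Mad2l1, Ttk, Birc5, Hmmr and Kif20a). Groups without overlap were thus found for 2 of 39 genes (5.13%), beside 20.7% of all genes. Set against the control mean, the median gene stood at 0.10 in knockout 1, -0.74 in knockout 2 and -0.91 in knockout 3. The controls themselves stood at 0.23, -0.26 and 0.03, with control 1 highest among the controls in 34 of 39 genes and control 2 lowest in 32. Those shares were 38.4% and 43.1% over all genes. The median SD was 0.27 over controls and 0.55 over knockouts, beside 0.20 and 0.30 over all genes, and the knockout SD was the larger in 37 of 39 (68% of all genes), not in Ndc80 and Ect2.

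**Figure D2:**
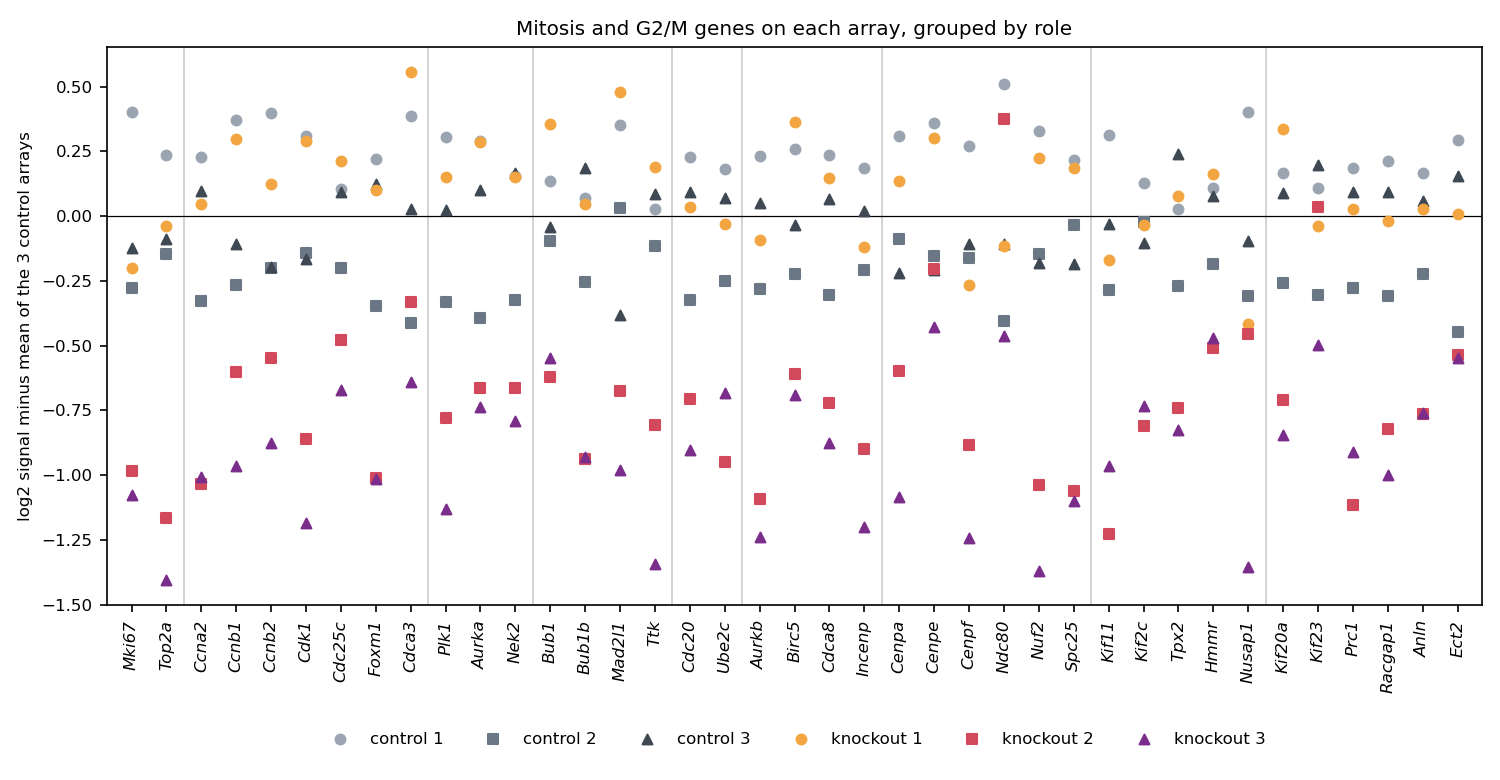
Each of the 39 genes (x axis, grouped by role) on each of the 6 arrays (points), as log2 signal minus the mean of the 3 controls (y axis). Knockouts 2 and 3 (red squares and purple triangles) lie below the controls for most genes, with medians of -0.74 and -0.91. Knockout 1 (orange circles) lies among or above the controls except for Cenpf and Nusap1, with a median of 0.10.

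Mki67 and Top2a had the largest median difference of any role, -0.81 over the pair. Mki67, which encodes the Ki-67 protein that coats mitotic chromosomes and marks dividing cells, gave 4.42, 3.74 and 3.90 in controls and 3.82, 3.04 and 2.94 in knockouts. Knockouts 2 and 3 were under every control, and knockout 1 was between controls 2 and 3. The difference of -0.75 ± 0.30 (SE) had a limma adjusted p of 0.130. Top2a, the topoisomerase that untangles sister chromatids, gave 3.99, 3.61 and 3.67 in controls and 3.72, 2.59 and 2.35 in knockouts. Again knockout 1 was inside the control range and the other 2 knockouts were under it. Its difference was -0.87 ± 0.36 (1.83-fold lower, limma adjusted p = 0.145), and its 95% interval ran from -1.74 to -0.00238.

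The mitotic entry group, with Ccna2, Ccnb1, Ccnb2, Cdk1, Cdc25c, Foxm1 and Cdca3, had a median difference of -0.43, and 0 of 7 passed the test. Ccna2, the cyclin of S phase and early mitosis, had the smallest p of the group, with 3.90, 3.34 and 3.76 in controls and 3.71, 2.63 and 2.66 in knockouts. Knockouts 2 and 3 lay more than 0.5 below the lowest control, and knockout 1 lay among the controls. Its difference was -0.66 ± 0.33 (limma adjusted p = 0.202). Ccnb1, cyclin B1, gave 3.14, 2.51 and 2.66 in controls and 3.07, 2.17 and 1.81 in knockouts. Knockout 1 was close to the highest control, the other knockouts were below the lowest, and the difference was -0.42 ± 0.35 (limma adjusted p = 0.421).

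Cdk1, the kinase that the cyclins activate, showed the same arrangement. Its values were 1.96, 1.51 and 1.49 in controls and 1.94, 0.79 and 0.47 in knockouts, a difference of -0.59 ± 0.39 (limma adjusted p = 0.318). The 95% interval, -1.51 to 0.34, spans 0 and also spans a loss of more than 1 log2 unit. Foxm1 read 1.78, 1.21 and 1.68 in controls and 1.65, 0.54 and 0.54 in knockouts, with a difference of -0.64 ± 0.34 (limma adjusted p = 0.228). The pair of low knockouts were within 0.01 of each other, and knockout 1 was between controls 2 and 3. Cdca3, which triggers destruction of the entry inhibitor Wee1, was the entry gene with the largest p. It gave 4.36, 3.56 and 4.003 in controls and 4.53, 3.64 and 3.33 in knockouts, so that knockout 1 was the highest of all 6 arrays and only knockout 3 was under every control. Its difference was -0.14 ± 0.35 (limma adjusted p = 0.803), with a 95% interval of -0.99 to 0.71. Ccnb2 and Cdc25c, a second B-type cyclin and the phosphatase that activates Cdk1, had differences of -0.43 and -0.31.

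Among the mitotic kinases Plk1, Aurka and Nek2, which drive centrosome maturation and separation, the median difference was -0.44. Plk1 gave 4.54, 3.91 and 4.26 in controls and 4.39, 3.46 and 3.11 in knockouts, with a difference of -0.59 ± 0.35 (limma adjusted p = 0.277). Aurka gave 4.34, 3.65 and 4.14 in controls and 4.33, 3.38 and 3.31 in knockouts, with a difference of -0.37 ± 0.33 (limma adjusted p = 0.447). In both, knockout 1 ranked second to control 1, and the other knockouts were under all controls. Nek2 differed by -0.44.

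The spindle checkpoint genes Bub1, Bub1b, Mad2l1 and Ttk, which delay anaphase until every kinetochore is attached, had a median difference of -0.50. Bub1b (BubR1) read 0.44, 0.11 and 0.55 in controls and 0.42, -0.57 and -0.56 in knockouts. The low knockouts were separated from the lowest control by more than 0.6, and the difference was -0.61 ± 0.30 (limma adjusted p = 0.204). Bub1, the kinase that marks kinetochores for the checkpoint, read 0.41, 0.18 and 0.23 in controls and 0.63, -0.34 and -0.27 in knockouts. Here knockout 1 was above every control and the others were below every control, which left a difference of -0.27 ± 0.28 (limma adjusted p = 0.523). Mad2l1 (Mad2) and the kinase Ttk (Mps1), at -0.39 and -0.65, also had knockout 1 above and the other knockouts below all controls.

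The anaphase-promoting complex was represented by its activator Cdc20 and its ubiquitin-conjugating enzyme Ube2c, with a median difference of -0.54. Ube2c gave 4.15, 3.72 and 4.03 in controls and 3.94, 3.02 and 3.28 in knockouts, a difference of -0.55 ± 0.27 (limma adjusted p = 0.192). Cdc20 gave 4.70, 4.14 and 4.56 in controls and 4.50, 3.76 and 3.57 in knockouts, a difference of -0.52 ± 0.29 (limma adjusted p = 0.238). Knockout 1 was between the lowest and highest control for both, and knockouts 2 and 3 were lower than any control.

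The chromosomal passenger complex (Aurkb, Birc5, Cdca8 and Incenp), which corrects faulty attachments and then acts in cytokinesis, had a median difference of -0.61. Incenp, its scaffold, read 4.94, 4.55 and 4.78 in controls and 4.64, 3.86 and 3.56 in knockouts, with a difference of -0.74 ± 0.30 (limma adjusted p = 0.133). The 95% interval was -1.44 to -0.04. Birc5 (survivin) read 6.11, 5.62 and 5.82 in controls and 6.21, 5.24 and 5.16 in knockouts, with a difference of -0.31 ± 0.31 (limma adjusted p = 0.506). The members of this single complex were not alike in knockout 1, which was above all controls for Birc5 and near the lowest control for Incenp. Aurkb, the kinase of the complex, differed by -0.81 and Cdca8 (borealin) by -0.48.

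The centromere and kinetochore genes held both the smallest and the largest p of all 39. Cenpf, a large protein of the outer kinetochore that accumulates in G2, read 1.56, 1.13 and 1.18 in controls and 1.03, 0.41 and 0.05 in knockouts. All knockouts lay below all controls, knockout 1 by the narrowest margin. The difference was -0.80 ± 0.28 (1.74-fold lower, 95% interval -1.46 to -0.13, limma adjusted p = 0.0992). A second probe of Cenpf, whose target stretch may differ, had a difference of -0.24, with knockout 1 at -0.68 among controls of -0.35, -0.81 and -0.84. The lack of overlap therefore held on the brighter probe and not on the second. Ndc80, the microtubule-binding subunit of the kinetochore, read -0.51, -1.42 and -1.12 in controls and -1.13, -0.64 and -1.48 in knockouts. Its groups overlapped widely, with knockout 2 second only to control 1, and the difference was -0.07 ± 0.31 (limma adjusted p = 0.893). Its complex partners Nuf2 and Spc25 had differences of -0.73 and -0.66, and in both knockouts 2 and 3 were under all controls. Cenpa, the centromeric histone, differed by -0.52, and Cenpe, a kinetochore motor, by -0.11.

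Among the spindle genes Kif11, Kif2c, Tpx2, Hmmr and Nusap1 the median difference was -0.53. Kif11 (Eg5), the motor that pushes spindle poles apart, read 0.31, -0.28 and -0.03 in controls and -0.17, -1.23 and -0.97 in knockouts. Knockouts 2 and 3 were at least 0.6 below the lowest control and knockout 1 was between controls 2 and 3. The difference was -0.79 ± 0.31 (1.73-fold lower, limma adjusted p = 0.128). Hmmr, a spindle and hyaluronan-binding protein, read 1.23, 0.93 and 1.20 in controls and 1.28, 0.61 and 0.65 in knockouts, a difference of -0.27 ± 0.23 (limma adjusted p = 0.423). Knockout 1 was above every control and the others were below every control. Its other 2 probes had differences of 0.26 and -0.02, so the sign depended on the probe. Nusap1, a microtubule bundler, was the other gene besides Cenpf with no overlap, but knockouts 1 and 2 stood at 1.76 and 1.73 against a lowest control of 1.87. It differed by -0.74, while the depolymerising motor Kif2c differed by -0.53 and the spindle assembly factor Tpx2 by -0.50.

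The cytokinesis genes Kif20a, Kif23, Prc1, Racgap1, Anln and Ect2 had a median difference of -0.45. Racgap1, which with the motor Kif23 forms the centralspindlin complex at the cell's midzone, read 2.42, 1.90 and 2.30 in controls and 2.19, 1.39 and 1.21 in knockouts. Knockout 1 was within the control range and the others were below it, with a difference of -0.61 ± 0.29 (limma adjusted p = 0.188). Kif23 itself read 0.73, 0.31 and 0.82 in controls and 0.58, 0.65 and 0.12 in knockouts, and only knockout 3 was under every control. The partners thus stood apart in knockout 2, where Racgap1 was under all controls and Kif23 was among them. The difference of Kif23 was -0.17 ± 0.22 (limma adjusted p = 0.621), and a second probe gave 0.02. Prc1, which bundles midzone microtubules, differed by -0.67, the ring protein anillin (Anln) by -0.50, the motor Kif20a by -0.41 and Ect2 by -0.36. Across all roles, 18 of the 39 genes had further probes above background, 21 probes in all, and 19 of these differed in the same negative direction. In 18 of the 21, knockouts 2 and 3 were both below all controls.

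**Figure D3:**
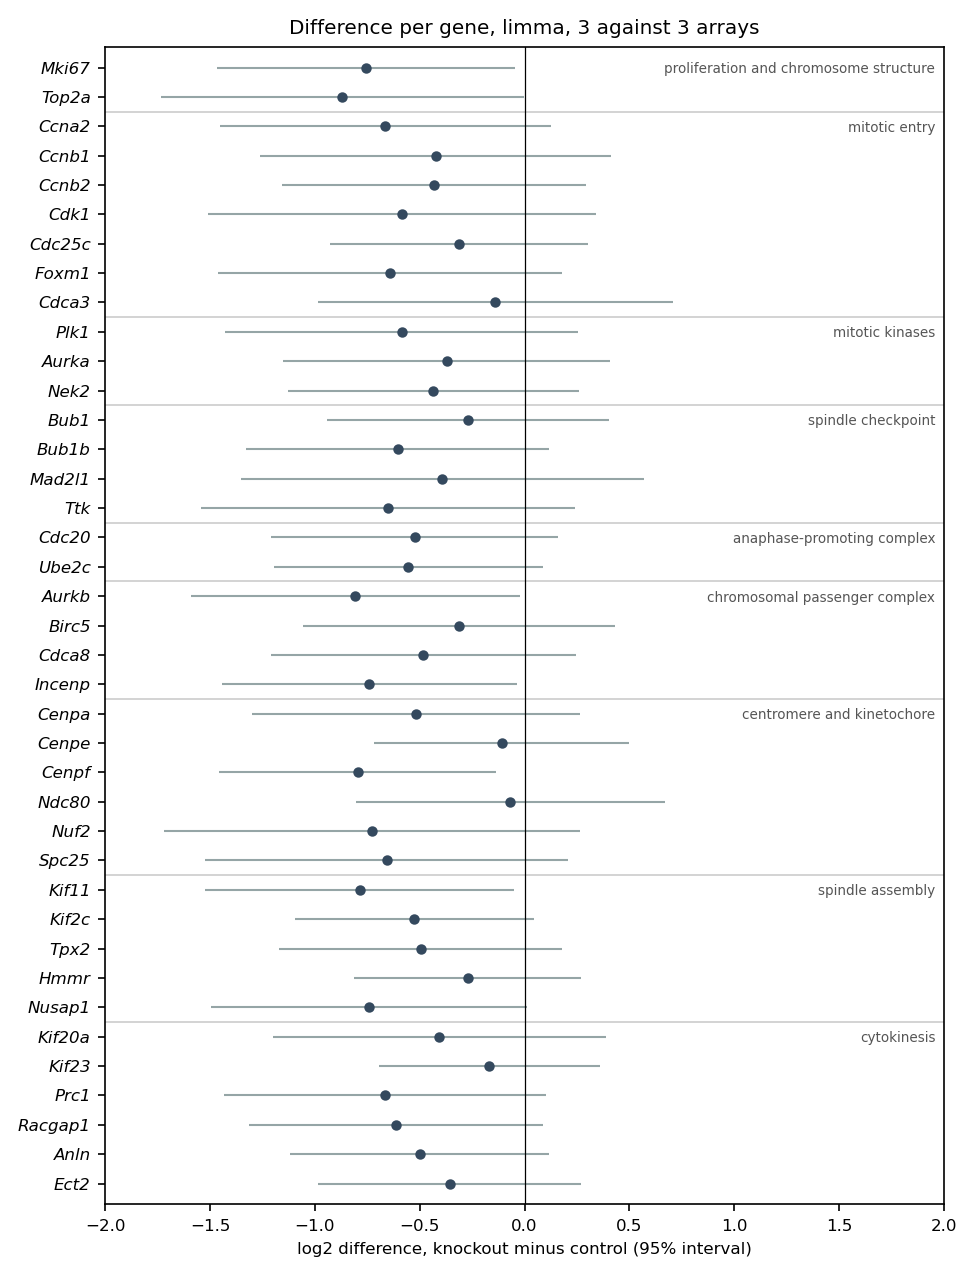
Log2 difference, knockout minus control, for each of the 39 genes with its 95% interval (x axis), grouped by role. All 39 points lie below 0, from -0.87 for Top2a to -0.07 for Ndc80, and the intervals of 6 genes exclude 0 before adjustment.

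How many of these genes passed the test turned on the library labelled knockout 1. Without it, 26 of the 39 were called lower in limma at an adjusted p under 0.05, with 17.2% of all genes called lower in the same fit, and the median difference was -0.82. The 13 not called were Ccnb1, Ccnb2, Cdc25c, Cdca3, Aurka, Mad2l1, Birc5, Cenpe, Ndc80, Hmmr, Nusap1, Kif23 and Ect2. With limma's array quality weights, which gave knockout 1 a weight of 0.279 and knockout 2 one of 6.34, 33 were called lower (26.7% of all genes). Knockout 3 had a weight of 0.430, so that fit leaned mostly on knockout 2 for its group, an array with contradictory labels. With the replicate number, which the labels tie to no shared animal or batch, as a block 3 were called lower (Mki67, Cenpf and Kif11, with 10.4% of all genes). Leaving out control 1, 2 or 3, or knockout 2 or 3, gave 0 of 39, where 2.12%, 2.61%, 2.69%, 3.46% and 5.83% of all genes were called lower. Leaving out both arrays with contradictory labels also gave 0 (1.06% of all genes). Knockout 1 was as low for Arid1a as the other knockouts, and the labels give no reason to set it aside. Grouped by the source name and genotype fields instead, the median difference was -0.0031, with 20 of 39 genes negative and 0 called (0% of all genes).

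Other settings also left 0 of 39 called lower. The share of all genes called lower was then 9.38% with the slide as a block, 2.74% on slide 1 alone, 8.7% with normexp background correction, 10.3% with array median scaling and 8.56% with quantile normalization. It was 1.41% with no filter on dim probes, 8.09% for probes well above background on all arrays, 7.7% with the mean of probes, 8.5% with eBayes with trend and 7.64% on the deposited series table. Within slide 1 the median difference was -0.31 and 36 of 39 were negative (50.2% of all genes), Cdca3, Ndc80 and Kif23 being the exceptions. Within slide 2, with 1 array of each group and so no replicate check, it was -0.94 and 39 of 39 were negative (51.6% of all genes). With arrays scaled on their medians, the median of all genes moved to -0.26 and that of the 39 genes to -0.77, which is -0.51 relative to all genes.

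**Figure D4:**
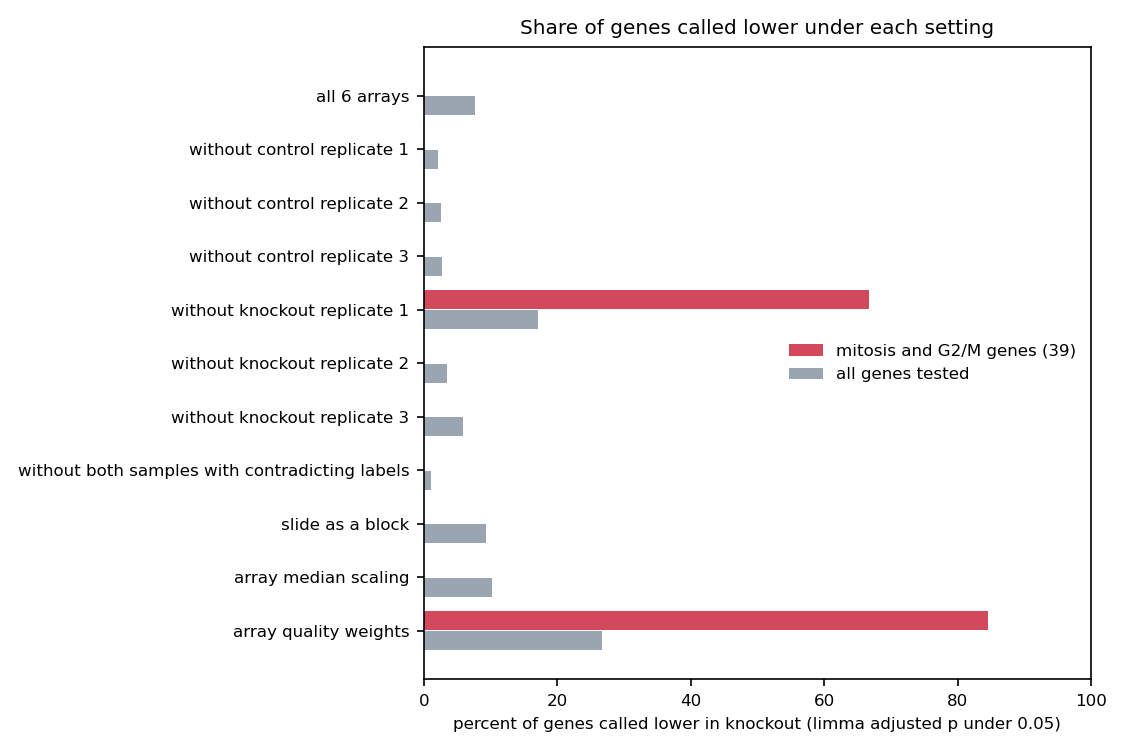
Percent of genes called lower by limma at an adjusted p under 0.05 (x axis, from 0) under the 11 settings named on the y axis, for the 39 genes (red) and all genes tested (grey). Among those plotted, the red bars stand without knockout 1 and with array quality weights, where 26 and 33 of the 39 genes were called and the grey bars are 17.2% and 26.7%, and the replicate block, with 3 called, is not plotted.

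A wider list of 65 other mitosis genes (condensins, kinetochore, spindle, cytokinesis and entry or exit factors) was measured for 64 of its genes. Of all genes tested 7.62% were called lower and 7.27% higher, and of these 64 genes 1 was called lower and 0 higher. This was Wee1, the kinase that holds Cdk1 inactive until mitosis, with 1.91, 1.39 and 2.02 in controls and 0.60, 0.45 and 0.73 in knockouts. All knockout arrays, knockout 1 included, lay more than 0.6 below the lowest control. Wee1 fell by 1.18 ± 0.21 (SE), or 2.26-fold, with a limma adjusted p of 0.0164. Without control 1, control 3 or knockout 2 its adjusted p was 0.0730, 0.0605 and 0.0590. Of the 64, 12 were lower and 1 higher at an unadjusted p under 0.05 (18% and 16.3% of all genes), which for the lower direction is near the background. The difference was negative for 59 (50.8% of all genes), and the median was -0.51, beside -0.52 for the 39 genes.

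The next smallest p-values of that list belonged to Lmnb1, Mastl and Bub3, none of which passed the test. Lmnb1, a lamin of the nuclear envelope, read 4.16, 3.62 and 3.97 in controls and 3.44, 2.30 and 2.13 in knockouts (difference -1.29 ± 0.37, limma adjusted p = 0.0589). Mastl (Greatwall), the kinase that restrains the phosphatase opposing Cdk1, read -1.65, -1.92 and -1.97 in controls and -2.31, -2.83 and -3.50 in knockouts (difference -1.03 ± 0.31, limma adjusted p = 0.0672). In both genes knockout 1 was the highest knockout and still below every control. Bub3, the checkpoint partner of Bub1 and BubR1, read 5.09, 4.65 and 4.98 in controls and 4.57, 4.13 and 3.99 in knockouts (difference -0.68 ± 0.22, limma adjusted p = 0.0789).

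The genes of the preceding phase followed the same order of arrays. Of 42 DNA replication and S phase genes 41 were tested. In limma 0 were called in either direction, beside 7.62% lower and 7.27% higher of all genes. The difference was negative for 38 (50.8% of all genes), with a median of -0.63. At an unadjusted p under 0.05, 10 were lower and 0 higher, beside 18% and 16.3% of all genes. Mcm6, a subunit of the replicative helicase, read 5.47, 5.34 and 5.29 in controls and 4.97, 3.86 and 3.52 in knockouts, a difference of -1.25 ± 0.37 (limma adjusted p = 0.0638). Pola1, the catalytic subunit of DNA polymerase alpha, read 1.77, 1.24 and 1.27 in controls and 1.01, -0.17 and -0.79 in knockouts, a difference of -1.41 ± 0.45 (limma adjusted p = 0.0799). For both genes knockout 1 was below all controls but stood more than 1 log2 unit above the other knockouts.

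Pcna, the sliding clamp, read 5.44, 4.86 and 4.88 in controls and 4.60, 4.57 and 4.32 in knockouts, with the knockouts close to each other and all below the controls (difference -0.56 ± 0.21, limma adjusted p = 0.112). Mcm2, another helicase subunit, read 1.82, 1.38 and 1.65 in controls and 1.45, 0.17 and -0.29 in knockouts, with knockout 1 among the controls (difference -1.17 ± 0.43, limma adjusted p = 0.114). Relative to the control mean, the median S phase gene stood at 0.03, -0.86 and -1.08 in knockouts 1 to 3, and the median of the other mitosis genes at 0.06, -0.77 and -0.83. Whether the lists differ from each other was not tested.

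Markers of other crypt cell types were set beside these genes, array by array. Of 11 crypt base stem cell markers 10 were tested (not Olfm4), 4 were called lower (Ascl2, Axin2, Rgmb and Prom1) and 0 higher, beside 7.62% and 7.27% of all genes. Their median stood at -0.70, -1.42 and -2.18 in knockouts 1 to 3. Their summed linear signal, relative to the 75th percentile, was 60.6 to 79.6 in controls and 13.1 to 38.7 in knockouts. Knockout 1 was below all controls for 9 of the 10 stem cell markers, beside 34.7% of all genes. It was so for 2 of the 39 mitosis and G2/M genes, as given above, and the difference between the lists was not tested. Of 7 Paneth cell markers, genes of the secretory cells at the crypt base, 5 were called lower and 1, Pnliprp2, higher, with medians of -1.78, -2.38 and -4.17 in knockouts 1 to 3 and summed signals of 822 to 1061 in controls and 76.9 to 359 in knockouts. Of 14 absorptive enterocyte markers, which belong to non-dividing cells of the villus, 1 (Lct) was called lower and 0 higher, and their median stood at -0.29, 0.12 and 0.61. Their summed signal was 3304 to 4087 in controls and 2571 to 4993 in knockouts.

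The T cell markers, 11 of 12 tested and 0 called, had a median of -1.06, 0.56 and 0.41 in controls 1 to 3 and 0.81, -0.55 and 0.77 in knockouts 1 to 3, and summed signals of 36.6 to 129 and 49.2 to 130. Control 1, the lowest for T cell markers, was the highest control for 34 of the 39 mitosis and G2/M genes. The knockouts were arranged otherwise. Knockout 1, the highest for T cell markers (median 0.81), was also the highest knockout for 37 of the 39. Knockout 3, close to it for T cell markers (0.77), was the lowest knockout for 30 of the 39. Of the fibroblast list 1 of 8 genes was tested, since Col1a1, Col1a2, Col3a1, Dcn, Pdgfra, Pdgfrb and Lum were not well above background on at least 3 arrays. Of 6 smooth muscle genes 3 were tested and 1, Acta2, was called higher (7.27% of all genes), while Myh11, Des and Cnn1 were not well above background. The median of these 3 stood at -0.22, -0.21 and 0.43 in controls 1 to 3 and at 0.10, 0.50 and 1.01 in knockouts 1 to 3. Of the B and plasma cell list 4 genes were tested and 0 called (Cd79a, Ms4a1 and Mzb1 were not well above background), with summed signals of 84.92 to 96.95 in controls and 110 to 161 in knockouts. Nearly all of that sum is Xbp1, at 6.58, 6.59 and 6.40 in controls and 6.77, 7.32 and 7.09 in knockouts. Cd79b, Pax5 and Jchain were below 0 on every array, so the sum describes Xbp1 and not the list. Within the list, Cd79b and Pax5, picked after their values were seen, lay below all controls on every knockout array, as did 20.7% of all genes. Their differences were -1.08 and -0.73 (limma adjusted p = 0.0682 and 0.0613), and Pax5 was well above background on only 4 arrays. Jchain and Xbp1 had differences of 1.20 and 0.54. Of 9 macrophage genes 6 were tested, with Cd68 called higher and Lyz2 lower, beside 7.27% and 7.62% of all genes (Adgre1, C1qa and C1qc were not well above background). Which cells gave the Lyz2 signal was not tested. The part of any of these cell types in the values of the 39 genes was not tested either.

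**Figure D5:**
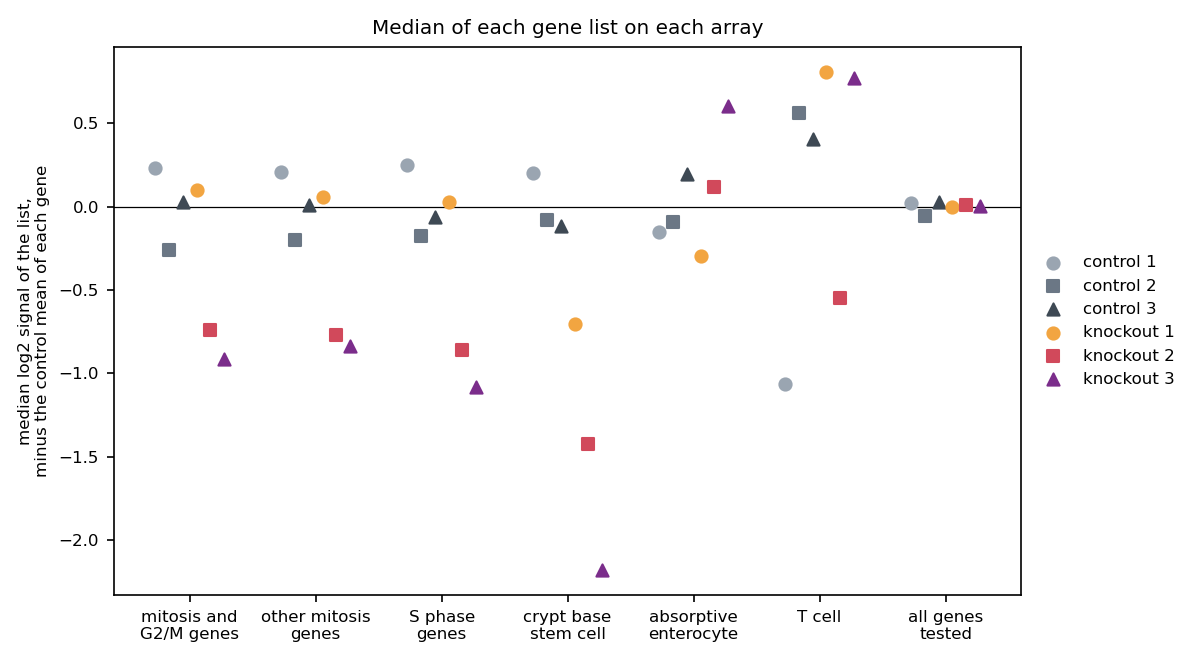
Median of each gene list (x axis) on each of the 6 arrays (points), as log2 signal minus the control mean of each gene (y axis). The mitosis, other mitosis and S phase lists lie near 0 in knockout 1 (0.10, 0.06 and 0.03) and below the controls in knockouts 2 and 3, while the stem cell markers are lower in all knockouts, at -0.70, -1.42 and -2.18.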

How the data were processed

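Cy3-labelled RNA from 3 control and 3 knockout samples was hybridised to one-colour Agilent arrays, 1 per sample, per the labels. The authors read the spot intensity with Agilent Feature Extraction, whose version is 12.0.3.1 in the scanner files and 11.5.1.1 in the submitters' processing notes. The deposited processed intensity is, per the file headers, background-subtracted within each array, and the flags for outliers, saturation and signal well above background are Feature Extraction's. A series table that the authors deposited gives log2 values. Comparison with the scanner values showed the 75th percentile scale used here and centring of every probe on its median of the arrays, with column medians of 0.196, 0.0606 and -0.322 (controls) and -0.0717, 0.214 and -0.183 (knockouts), and it served as an alternative.

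Control and outlier spots were left out, spots of a probe averaged, and log2 signals taken relative to each array's 75th percentile over probes. Probes were named through unversioned accessions in a RefSeq table (GRCm38.p6): 33767 of 56605 received a symbol and 22838 did not. The array's coordinates are on another build, so those printed are of the promoter table only. Of the 26749 probes well above background on at least 3 arrays, 19395 had a symbol, and the brightest probe stood for a gene (4726 genes had several). The fit was limma 3.58.1 (R 4.3.3) on 13499 genes with a single term for group, moderated by eBayes. Two-sided p-values were adjusted by Benjamini-Hochberg. The script was tested on simulated data with 3 arrays a group. Of 50 genes changed by 1 log2 unit 36% were recovered, and of 50 changed by 2 units 70%, with 7 false calls. The largest member difference, -0.87, is smaller than either change. The number of arrays limits the precision.

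The members and all gene lists were chosen with earlier results of these data known. Array by array values are given for Mki67, Top2a, Ccnb1, Cdk1 and Foxm1, for the genes with the smallest and largest p in each role, for the 4 smallest p-values of the other mitosis and S phase lists, and for Arid1a. Any other gene with values was picked after they were seen. Alternatives covered grouping, blocks, slide, background correction, scaling, filter, probe choice, variance model, weights, the deposited table, the threshold and leaving out each array. normexp used the median spot signal. One marker gene is not reported here.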

Additional observations from a re-analysis of the deposited data

How the results depend on the processing

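With 3 arrays a group and a median SE of 0.31, the median 95% interval of a member ran from -1.26 to 0.24, so a change of the size of the median could not be told from 0. The count of members called higher was 0 throughout. Members called lower were 0 of 39 except for 3 with the replicate block, 33 with array quality weights, 1 at adjusted p under 0.10 and 0 to 26 on leaving out an array (26 without knockout 1). Their median difference was -0.0031 when grouped by source name and genotype and -0.82 to -0.31 on leaving out an array.

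Other mitosis genes called lower went from 1 to 0 (by source name, without both contradictory arrays, slide 1 alone, no filter), 2 (slide block, well above background on all arrays, eBayes trend), 3 (replicate block, normexp, median scaling), 4 (adjusted p under 0.10), 44 (weights) and 0 to 39 (leaving out an array). S phase genes went from 0 to 1 (median scaling, mean of probes, eBayes trend), 2 (adjusted p under 0.10), 3 (replicate block), 33 (weights) and 0 to 30 (leaving out an array). All genes, 1028 lower and 982 higher, became 0 and 0 by source name, 143 and 177 without both contradictory arrays, 370 and 319 on slide 1, 331 and 366 with no filter, 3604 and 3491 with weights, and 1801 and 1644 at adjusted p under 0.10. They were 560 higher with median scaling (1389 lower), and 286 to 2318 lower and 352 to 1704 higher on leaving out an array. Arid1a was -0.18 by source name (limma adjusted p = 0.999) and -1.23 without both contradictory arrays (adjusted p = 0.0979), and -1.60 to -1.33 on leaving out an array.

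By source name 20 of the 39 members were negative. Among the 21 members given array by array, signs turned for Foxm1 (0.11), Ccna2 (0.0891), Cdca3 (0.10), Aurka (0.14), Bub1b (0.14), Bub1 (0.12), Ube2c (0.12), Cdc20 (0.0078), Birc5 (0.0723), Kif11 (0.0111) and Hmmr (0.12). Among the same 21 they turned on slide 1 for Cdca3 (0.13), Ndc80 (0.0755) and Kif23 (0.10), and with weights for Ndc80 (0.27) and Kif23 (0.0254). On leaving out an array Cdca3 ranged from -0.49 to 0.11 and Ndc80 from -0.29 to 0.19. The cause was not tested.

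Same-numbered samples share a number and a slide, and the labels tie them by nothing more. Deviations from the group means correlated at 0.25, 0.08 and 0.35 for numbers 1 to 3. Each knockout correlated best with its own number, a hint from the data and not the design. For knockout 2 the next best was 0.02, with control 1. Control 3 and knockout 3 were the only arrays on slide 2, so for them number and slide cannot be told apart. The replicate block called Mki67, Cenpf and Kif11 (limma adjusted p 0.0345, 0.0420 and 0.0387), beside 10.4% of all genes.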

Other observations

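A few genes of the wider lists did not share the sign of the rest. Of the other mitosis genes, Ncapg, Sgo2a, Cenpi, Hjurp and Lin54 had positive differences. They are named here because of their values, and none passed the test. Ncapg, a subunit of condensin I, which compacts chromosomes, read 3.49, 2.25 and 3.47 in controls and 3.91, 3.78 and 2.81 in knockouts, each in the order 1 to 3. Knockouts 1 and 2 were above all controls and knockout 3 was inside their range (difference 0.43 ± 0.44, limma adjusted p = 0.512). The other condensin I subunits on the list, Ncapd2 and Ncaph, had differences of -0.63 and -0.80, and their shared partners Smc2 and Smc4 -0.51 and -0.61. In all 4, knockouts 2 and 3 were below all controls. Ncapg was measured by 1 probe. Lin54, the DNA-binding subunit of MuvB, read 1.94, 1.55 and 1.70 in controls and 1.95, 2.23 and 2.40 in knockouts. Knockouts 2 and 3 were above all controls, while knockout 1 was level with control 1 (1.950 and 1.945). Its difference was 0.46 ± 0.19 (limma adjusted p = 0.139), and a second probe gave 0.43.

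Among the S phase genes, Rrm2, E2f2 and Ung had positive differences. Rrm2, the small subunit of ribonucleotide reductase, read 3.67, 3.14 and 3.47 in controls and 4.18, 4.11 and 2.97 in knockouts, so knockouts 1 and 2 were above all controls and knockout 3 was below them (difference 0.32 ± 0.35, limma adjusted p = 0.540). E2f2, a transcription factor of the S phase programme, read 4.72, 4.16 and 4.62 in controls and 4.79, 4.99 and 4.67 in knockouts (difference 0.32 ± 0.20, limma adjusted p = 0.303).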
